A study of Rattus norvegicus with 19 samples.

Results

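Phenylalanine and tyrosine are broken down in the liver by one chain of enzymes, and 6 of its genes, Qdpr, Tat, Hpd, Hgd, Gstz1 and Fah, are described here across the livers of rats on 3 diets. They were chosen as every non-control array probe whose gene name, or whose current symbol by accession or synonym, is one of the 6. A probe was found for 5 of the 6 genes, 1 probe each and all matched by accession, among 41012 non-control probes and 22228 features tested (genes by their brightest probe, and unnamed probes singly). No probe was matched to Gstz1, which is not analysed here. All 5 probes stood well above background in both channels on 19 of 19 arrays and none was saturated.

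Liver RNA came from 19 male Wistar rats, housed singly, that were 8 weeks old at the start, ate 1 diet for 4 months and were killed fed in the early morning. Protein, mainly casein, supplied 45% of the energy of the high protein diet (HP, 6 rats), with 45% from carbohydrate and 10% from fat. Fat supplied 60% in the high fat diet (HF, 6 rats), with 20% from protein and 20% from carbohydrate. In the control diet (Control, 7 rats) the shares were 20% protein, 10% fat and 70% carbohydrate. The diets therefore differ in more than 1 nutrient: HP differs from Control in protein and carbohydrate, HF from Control in fat and carbohydrate, and HP from HF in all 3. Each array compared 1 rat's RNA, in Cy5, with a pool of equal parts of liver RNA, in Cy3, and every level below is the log2 ratio of that liver to the pool.

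As background, phenylalanine is first hydroxylated to tyrosine with tetrahydrobiopterin as cofactor, and dihydropteridine reductase (Qdpr) returns the spent cofactor to its working form. Tyrosine aminotransferase (Tat) then removes the amino group of tyrosine, the step usually taken as limiting and a classical target of glucocorticoid, glucagon and cyclic AMP in rat liver. 4-hydroxyphenylpyruvate dioxygenase (Hpd) forms homogentisate, homogentisate dioxygenase (Hgd) opens its ring, maleylacetoacetate isomerase (Gstz1) rearranges the product, and fumarylacetoacetase (Fah) splits it into fumarate and acetoacetate. Loss of FAH causes hereditary tyrosinemia in humans, loss of HGD causes alkaptonuria, and HPD is the target of the drug nitisinone.

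The promoters of the 3 genes on which the diet differences rest are shown, each as the 250 bases that end just before the annotated start, 5′ to 3′ on the gene's strand, with CCAAT boxes in capitals (ATTGG where the box lies on the other strand). Sequences and positions are RefSeq's, build GRCr8: Tat at chr19:54856354-54856603 on the plus strand, Hpd at chr12:39041996-39042245 on the plus strand and Hgd at chr11:76643768-76644017 on the minus strand.
Tat: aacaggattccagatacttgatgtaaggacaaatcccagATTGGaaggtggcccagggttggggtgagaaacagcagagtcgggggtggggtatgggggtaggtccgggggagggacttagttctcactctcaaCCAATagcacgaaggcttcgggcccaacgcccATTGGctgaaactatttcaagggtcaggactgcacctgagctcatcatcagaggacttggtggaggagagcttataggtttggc
Hpd: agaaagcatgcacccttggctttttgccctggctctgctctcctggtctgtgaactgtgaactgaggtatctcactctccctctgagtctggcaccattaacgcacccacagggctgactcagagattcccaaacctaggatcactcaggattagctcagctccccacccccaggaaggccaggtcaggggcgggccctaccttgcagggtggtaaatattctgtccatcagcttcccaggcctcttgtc
Hgd: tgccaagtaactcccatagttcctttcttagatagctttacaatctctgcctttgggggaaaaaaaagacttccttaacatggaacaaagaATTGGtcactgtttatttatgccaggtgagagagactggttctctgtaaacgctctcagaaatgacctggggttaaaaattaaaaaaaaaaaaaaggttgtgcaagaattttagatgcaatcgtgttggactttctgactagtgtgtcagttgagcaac

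All 6 genes matched a promoter in that table, and 9 short motifs were searched on both strands. The Tat window held 3 CCAAT boxes (CCAAT), 1 on the gene's strand at 116 to 112 bases before the start and 2 on the other strand at 211 to 207 and 84 to 80. The Hgd window held 1 on the other strand at 159 to 155, and the Qdpr window 1 on the other strand at 139 to 135. At least 1 CCAAT box was present in 34% of 33469 promoters of the same length. The glucocorticoid receptor's short motif AGAACA, found in 17.5% of all promoters, occurred in Qdpr alone of the 6, and the cyclic AMP response element's short motif TGACG, found in 18.2%, in Gstz1 alone. No searched motif was found in the Hpd or Fah window; the others searched were the TATA box (TATAAA, in 12.9% of all promoters), a forkhead motif (TGTTTAC, in 3.21%), the E-box (CACGTG, in 5.59%) and the C/EBP, HNF1 and HNF4 motifs, each in under 1%. GC content was lowest in Hgd at 38% and highest in Fah at 69.2%, with 54% in Tat, 56% in Hpd, 61.2% in Qdpr and 65.6% in Gstz1, beside a median of 51.2% over all promoters. These matches are letters only, and no binding was measured.

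Across the diets, the clearest differences were in Tat, Hpd and Hgd. Hpd rose in HP livers over Control (log2 difference 0.77, or 1.7-fold), and Tat (1.02, or 2.03-fold) and Hgd (0.485, or 1.4-fold) were higher in HP than in HF livers. Qdpr and Fah passed no test between any pair of diets. In HP against Control 1 of the 5 genes was called at an adjusted p under 0.05 (limma, Benjamini-Hochberg over 22228 features), where 0.414% of all features were called, 0.274% higher and 0.139% lower. That count was 0 with ratios scaled between arrays and with slide as a fixed block. In HF against Control 0 of 5 were called by limma, with 3 of 5 at an unadjusted p under 0.05, beside 3.63% of all features called (1.84% higher and 1.79% lower) and 15.8% at that unadjusted p. Several other processing settings called 1 gene there, Hpd. In HP against HF 2 of 5 were called, beside 7.02% of all features (3.62% higher and 3.4% lower).

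Seen as a set, all 5 genes were higher in mean in HP livers than in Control, as were 46.4% of all features. The median log2 difference of the 5 was 0.38. All 5 had an unadjusted p under 0.05, as did 14.3% of all features. The median over all features was -0.01. The genes were chosen with earlier results of these data known. The shares over all features therefore do not measure how unusual this set is. In HF against Control 3 were higher in mean and 2 lower, with a median of 0.14, beside 46.9% of all features higher. For HP against HF all 5 were higher in mean, with a median of 0.32, beside 48.8% of all features higher. Of these 5, Qdpr differed by only 0.03, and its sign changed with the setting. The comparisons share groups, so these directions are not independent of each other. In bulk liver RNA, fewer cells of a type and less RNA per cell cannot be told apart.

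**Figure D1:**
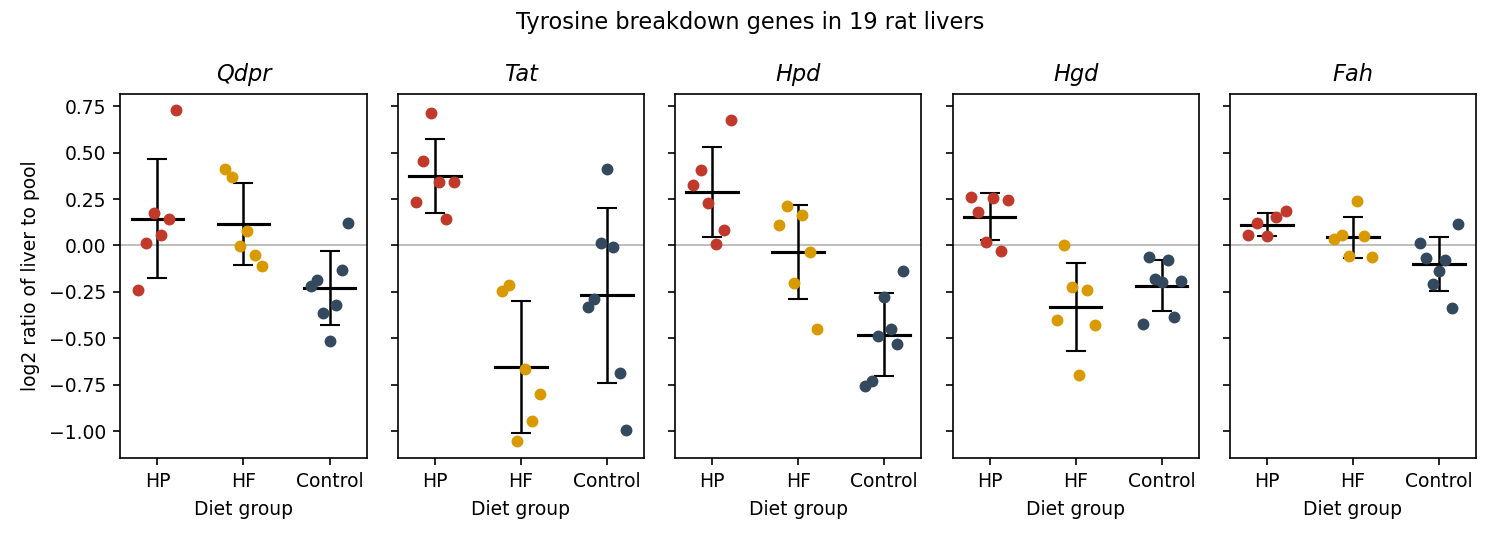
Log2 ratio of each liver to the pool (vertical axis) for the 5 measured genes, by diet group; points are single livers, the long bar is the group mean and the whiskers its SD (HP and HF n = 6, with n = 5 for Fah in HP, Control n = 7). Tat in HP lies wholly above HF, and Hpd and Hgd in HP lie wholly above Control.

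Qdpr, the cofactor-recycling reductase, was measured by a probe at chr14:70755521-70755580 on the plus strand (positions from the scanner files, build rn4; exon or UTR not given in the sources used here). Its log2 ratio had a low of -0.24, a median of 0.10 and a high of 0.73 in HP livers. The HF livers had a low of -0.11, a median of 0.04 and a high of 0.41, against a low of -0.51, a median of -0.22 and a high of 0.12 in Control livers. All 3 groups overlapped, and the other 5 HP livers lay between -0.24 and 0.17, below HP 6. The log2 difference from Control was 0.38 in HP (95% interval 0.10 to 0.65, adjusted p = 0.193) and 0.35 in HF (adjusted p = 0.179). Without HP 6 the HP difference was 0.26. HP and HF differed by 0.03 (interval -0.25 to 0.31, adjusted p = 0.953), a difference whose sign changes with the setting, with values in the account of the processing.

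Tat, the transaminase that opens tyrosine breakdown, was read by a probe at chr19:39863848-39863907 on the plus strand (rn4). In HP livers 1 to 6 the log2 ratio was 0.23, 0.46, 0.71, 0.34, 0.14 and 0.34. In HF livers 1 to 6 it was -0.24, -0.21, -1.05, -0.66, -0.94 and -0.80, so that every HP liver lay above every HF liver. The 7 Control livers spread from -0.996 to 0.41 with a median of -0.29, the widest range of any gene and group here (1.41), and overlapped both other diets. HP exceeded HF by 1.02 ± 0.20 on the log2 scale (SE; 95% interval 0.62 to 1.43, adjusted p = 0.00286). Values that do not overlap, with HP higher, were seen in 2.74% of all features in that comparison, and with HP lower in 2.25%. Against Control the difference was 0.64 ± 0.19 in HP (adjusted p = 0.132) and -0.38 ± 0.19 in HF (interval -0.78 to 0.01, adjusted p = 0.334). Neither passed the threshold, and HP and HF lay on opposite sides of the Control mean of -0.27 ± 0.47 (SD, n = 7).

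Hpd, the dioxygenase that makes homogentisate, was read by a probe at chr12:34556165-34556224 on the plus strand (rn4) whose mean signal was at the 99.1 percentile of kept probes. The log2 ratio in HP livers 1 to 6 was 0.33, 0.41, 0.23, 0.01, 0.09 and 0.68. HF livers 1 to 6 had 0.11, 0.21, -0.20, 0.16, -0.03 and -0.45. Control livers 1 to 7 had -0.755, -0.73, -0.49, -0.28, -0.45, -0.53 and -0.14. Every HP liver was above every Control liver, and HF lay between them and overlapped both. The HP mean was 0.29 ± 0.24 and the Control mean -0.48 ± 0.22 (SD, n = 6 and 7), a difference of 0.77 ± 0.12 (SE; 95% interval 0.51 to 1.03, adjusted p = 0.0125). It ranked 10 of 22228 features by p in that comparison, where values in HP wholly above Control were seen in 0.499% of features. The difference was 0.65 (adjusted p = 0.135) with log ratios scaled between arrays and 0.73 (adjusted p = 0.0736) with the array slide as a fixed block, which end the call. HF exceeded Control by 0.45 ± 0.12 (interval 0.19 to 0.71, adjusted p = 0.052). HP exceeded HF by 0.32 ± 0.13 (adjusted p = 0.156).

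Hgd, the ring-opening dioxygenase, was read by a probe at chr11:64876293-64876352 on the minus strand (rn4). The log2 ratio in HP livers 1 to 6 was 0.26, 0.18, 0.02, 0.25, -0.03 and 0.24. In HF livers 1 to 6 it was -0.40, 0.00, -0.22, -0.70, -0.24 and -0.43, so 5 of 6 HP livers lay above the highest HF liver. Control livers ran from -0.42 to -0.06 with a median of -0.19, and all 6 HP livers were above all 7. Values in HP wholly above Control were seen in 0.499% of all features. HP exceeded HF by 0.485 ± 0.10 (SE; 95% interval 0.28 to 0.69, adjusted p = 0.00386). Against Control the HP difference was 0.37 ± 0.09 (interval 0.18 to 0.565, adjusted p = 0.0841), so the groups did not overlap yet the adjusted test was not passed. The HF difference from Control was -0.11 ± 0.09 (interval -0.31 to 0.08, adjusted p = 0.611). It was -0.04 without HF 4, -0.181 without HF 2 and -0.261 with ratios scaled between arrays.

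Fah, the last enzyme of the chain, was read by a probe at chr1:140857101-140857160 on the minus strand (rn4) and had the smallest range over all livers, -0.34 to 0.24. In 5 HP livers the log2 ratio was 0.05, 0.12, 0.05, 0.15 and 0.185 (livers 1, 2, 3, 5 and 6). The spot of HP 4 was dropped as an outlier by the scanner software, and the fit used the other 5. HF livers had a low of -0.06, a median of 0.04 and a high of 0.24, against a low of -0.34, a median of -0.08 and a high of 0.12 in Control livers. All groups overlapped. The difference from Control was 0.21 ± 0.07 in HP (interval 0.065 to 0.36, adjusted p = 0.178) and 0.14 ± 0.07 in HF (adjusted p = 0.301), and HP and HF differed by 0.07 ± 0.07 (interval -0.08 to 0.22, adjusted p = 0.69).

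A test of any difference among the 3 diets passed for Tat (limma F test, adjusted p = 0.00756), Hpd (adjusted p = 0.00196) and Hgd (adjusted p = 0.00759), beside 6.57% of all features. It was not passed for Qdpr (adjusted p = 0.12) or Fah (adjusted p = 0.133). The order of the diet means was HP, HF, Control for Qdpr, Hpd and Fah, and HP, Control, HF for Tat and Hgd. Neighbours in these orders differed by a passed test in no case: the 3 calls were all between the ends of an order.

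**Figure D2:**
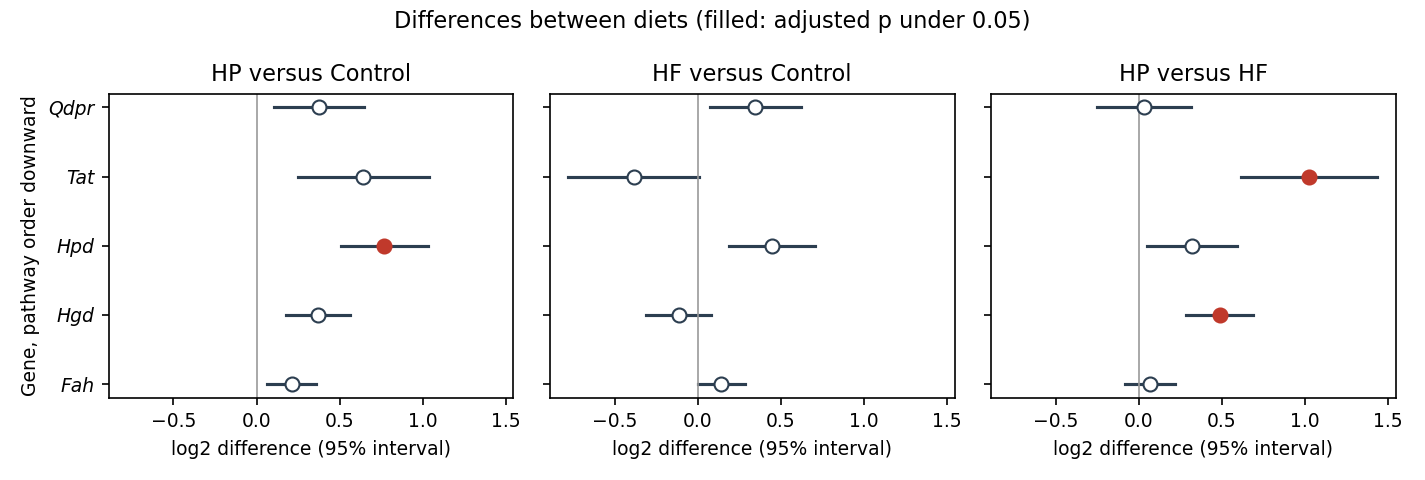
Log2 difference between diets for the 5 genes in pathway order, with 95% intervals; filled points have an adjusted p under 0.05. The filled points are Hpd in HP versus Control (0.77) and Tat (1.02) and Hgd (0.485) in HP versus HF.

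The arrays lay on 5 slides of the 4-array format, and HP and HF arrays share only 1 of them, so slide and diet are partly confounded, most of all in HP against HF. HP could be set against Control on slides 1, 4 and 5, with 2 HP livers on each and 1, 2 and 1 Control livers. The only Control liver on slide 5 was Control 6, which stands apart as described below. The HP minus Control difference on slides 1, 4 and 5 was 0.92, 0.54 and 0.98 for Hpd, 0.62, 0.80 and 1.22 for Tat and 0.68, 0.21 and 0.52 for Hgd. For Qdpr it was 0.13, 0.18 and 0.58 and for Fah 0.04 (without HP 4), 0.12 and 0.45. All 5 genes were thus higher in HP on each of these slides, of which slides 1 and 5 rest on 1 Control liver each. HF could be set against Control on slides 1, 2 and 3, with 1, 2 and 3 HF livers and 1, 2 and 1 Control livers. Hpd differed there by 0.87, 0.51 and 0.38 and Qdpr by 0.63, 0.53 and 0.34. Tat differed there by 0.09, -0.69 and -0.82 and Hgd by 0.02, 0.02 and -0.27, so their directions were not the same on every slide. Fah differed by 0.02, 0.10 and 0.28. On slide 1, the only one with both, HP minus HF (2 livers against 1) was 0.53 for Tat, 0.66 for Hgd, 0.06 for Hpd and -0.51 for Qdpr. For Fah it was 0.02 (without HP 4, so 1 liver against 1). With slide as a fixed block both HP against HF calls held, close to the threshold. The difference was then 1.21 for Tat (limma, adjusted p = 0.0473) and 0.55 for Hgd (adjusted p = 0.041).

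The Control group held 1 liver that stands apart. In Control 6 the median log2 ratio of the 7 lymphocyte markers kept, of 16 listed, was 2.41. It lay between -0.89 and -0.68 in HP livers, between -0.91 and -0.73 in HF livers and between -0.91 and -0.63 over the other 18 livers. Among the markers not kept as above background were Cd3e and Ms4a1, and all 9 hepatocyte markers stood above background on every array. The hepatocyte markers had median log2 ratios of 0.12 to 0.47 in HP livers, 0.16 to 0.30 in HF livers and 0.10 to 0.37 in Control livers, and 2 of the 9 were called in HP against HF. Of 8 stellate cell markers kept, 1 was called in HP against Control, 2 in HF against Control and 1 in HP against HF. Of all features, 0.414%, 3.63% and 7.02% were called in these comparisons. No kept marker of lymphocytes, macrophages and Kupffer cells, cholangiocytes, endothelial cells or erythroid cells was called in any comparison. The part of these markers in the results was not tested. Without Control 6 the Hpd difference of HP from Control was 0.76 (adjusted p = 0.0219), the Tat difference of HP from HF was 1.02 (adjusted p = 0.00172) and that of Hgd was 0.485 (adjusted p = 0.00275). For the other 4 genes the HP minus Control difference without it was 0.39 in Qdpr, 0.57 in Tat, 0.34 in Hgd and 0.17 in Fah.

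Across the livers the 5 genes fell into patterns that only partly follow the chain. Tat and Hgd ran together (Spearman rho 0.71, n = 19), as did Qdpr with Hpd (0.65) and Fah with Hpd (0.77) and Qdpr (0.70, both n = 18). Tat had a rho of 0.05 with Qdpr and 0.14 with Fah, and Hpd had 0.49 with Tat and 0.55 with Hgd. Once each diet's mean was removed, the Pearson correlation of Tat with Hgd was 0.16, that of Qdpr with Hpd 0.49, that of Hpd with Fah 0.40 and that of Qdpr with Fah 0.37. These are descriptions, since the arrays share 1 pool and the livers fall into diet groups. Over the mean standardised level of the 5 genes, the 6 HP livers held the top 6 places of 19, with HP 6 highest (1.61 SD) and Control 6 lowest (-1.15 SD). The lowest HP liver, HP 1, and the next liver, HF 2, were both at 0.57 SD as rounded. The same ranking for other sets of genes was not computed. HP 4 was placed on 4 genes, without Fah.

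**Figure D3:**
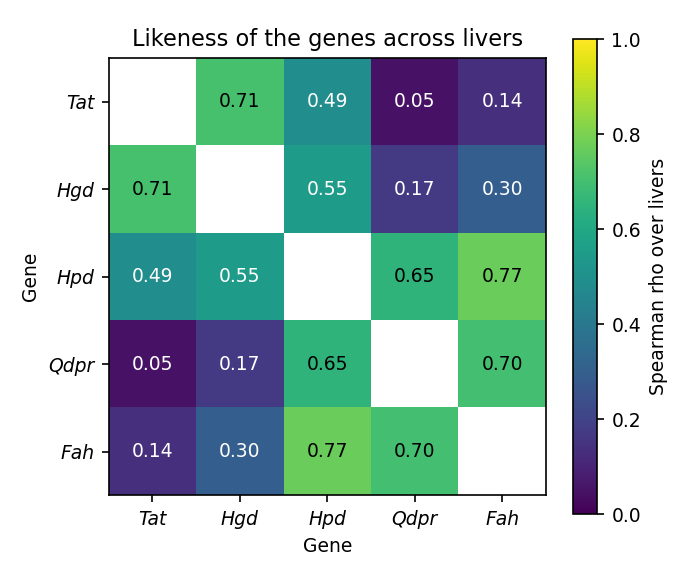
Spearman rho between each pair of the 5 genes over 19 livers (18 for pairs with Fah), by colour and printed value. Tat pairs with Hgd (0.71), while Hpd, Qdpr and Fah pair with each other (0.65 to 0.77).

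Of 10795 named genes compared (10796 for Fah and 10792 for the mean of the 5), those whose levels over the livers were most like each gene's were named by Spearman rho alone. For Tat they were Got1 (0.89), the cytosolic aspartate aminotransferase, Nnmt (0.85), the nicotinamide methyltransferase, and Eif1b (0.84). For Hpd they were Uox (0.92), urate oxidase, Asl (0.90), the urea cycle's argininosuccinate lyase, and Oat (0.89), ornithine aminotransferase. For Hgd they were Atp1b1 (0.92), a sodium pump subunit, Hal (0.89), the histidine-degrading ammonia lyase, and Psmd9 (0.88). For Qdpr they were Fmo5 (0.83), Desi2 (0.82) and Chd1l (0.81), and for Fah (n = 18) Bckdhb (0.87), a subunit of the branched-chain keto acid dehydrogenase, Gcdh (0.85), glutaryl-CoA dehydrogenase, and Gchfr (0.85). The mean over the 5 genes was most like Asl (0.95), Uox (0.95), Gpt (0.93), Dapk3 (0.90) and Cbs (0.89), of which Gpt is alanine aminotransferase and Cbs cystathionine beta-synthase. These too are descriptions, and likeness within a diet was not computed for them.

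Around the chain, 39 of 46 listed genes of 6 lists were measured. In HP against Control 2 were called higher and 0 lower (limma; 11 at an unadjusted p under 0.05), in HF against Control 2 higher and 3 lower (11 unadjusted), and in HP against HF 7 higher and 2 lower (12 unadjusted). Over all features the shares called were 0.414%, 3.63% and 7.02%, and those at an unadjusted p under 0.05 were 14.3%, 15.8% and 20%. The lists too were chosen with earlier results of these data known. The median log2 difference over the 39 was 0.01, -0.01 and 0.02 in these 3 comparisons.

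Among other enzymes acting on aromatic amino acids or their keto acids (5 of 8 measured), 4 were called higher in HP than in HF. Of all features, 3.62% were called higher in that comparison. Got1, which also transaminates aromatic amino acids, was 0.40 to 1.02 in HP livers, -1.07 to 0.16 in HF livers and -0.65 to 0.10 in Control livers, so HP lay above both other diets without overlap. HP lay wholly above Control in 0.499% of all features and wholly above HF in 2.74%. Got1 was 0.935 higher in HP than in Control (adjusted p = 0.0235) and 1.19 higher than in HF (adjusted p = 0.000271). The first of these was lost when Control 1, HP 2 or HP 6 was left out (adjusted p up to 0.0713) and with ratios scaled between arrays (adjusted p = 0.182), and the second held in all 19 omissions. Kyat1, a transaminase of kynurenine and aromatic amino acids, was 0.37 higher in HP than in HF (adjusted p = 0.0183, lost without HP 2). Mif, a cytokine with tautomerase activity towards phenylpyruvate, fell by 0.565 in HF against Control (adjusted p = 0.0134) and was 0.47 higher in HP than in HF (adjusted p = 0.0349). Got2, the mitochondrial aspartate aminotransferase, differed by 0.20 between HP and HF (adjusted p = 0.049). Ddc, the aromatic amino acid decarboxylase, was 0.26 above Control in HP without passing (adjusted p = 0.315).

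Of the carriers of aromatic amino acids (6 of 6 measured), Slc43a1 and Slc16a10 stood out. Slc43a1, which carries large neutral amino acids, was 0.51 higher in HP than in Control (adjusted p = 0.0235) and 0.555 higher in HF (adjusted p = 0.00147). The HP call was lost without Control 1, Control 2, HP 1, HP 2 or HP 6, with scaled ratios (adjusted p = 0.247) and with Cy5 alone (adjusted p = 0.107). Slc16a10, an aromatic amino acid carrier, was 0.845 higher in HF than in Control (adjusted p = 0.00275), while the HP difference of 0.61 did not pass (adjusted p = 0.0859). Neither differed between HP and HF by a passed test. Slc7a5 and Slc43a2 differed by -0.06 and -0.04 in HP against Control (adjusted p = 0.659 and 0.902).

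In the list of the FAH family and of fumarate and acetoacetate use (7 of 8 measured), Fahd1, a mitochondrial relative of Fah, fell by 0.38 in HF against Control (adjusted p = 0.02, lost without HF 5). It was 0.31 higher in HP than in HF (adjusted p = 0.0486). Bdh1 and Acat1, which act on ketone bodies, were lower in HP than in HF, with differences of -0.405 (adjusted p = 0.0137) and -0.33 (adjusted p = 0.0178). Fh, fumarate hydratase, was 0.29 above Control in HP without passing (adjusted p = 0.0841), and Fahd2a 0.26 (adjusted p = 0.162).

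Among genes known to be induced by glucocorticoid (8 of 8 measured), 2 were called in at least 1 comparison, Sgk1 and Dusp1. Sgk1, a kinase, fell by 1.42 in HF against Control (adjusted p = 0.0119) and was 1.1 higher in HP than in HF (adjusted p = 0.0449). Dusp1, a phosphatase, was 0.92 higher in HP than in HF (adjusted p = 0.0422). Tdo2, tryptophan dioxygenase, was 0.48 above Control in HP (adjusted p = 0.126) and 0.495 in HF (adjusted p = 0.0502), with -0.02 between HP and HF. Its log2 ratio was 0.933 in HF 4 and -0.075 to 0.168 in the other HF livers. Fkbp5 differed by -0.32 between HP and HF (adjusted p = 0.255), with 0.766 in HF 4 and -0.183 to 0.211 in the other HF livers. The median over the 8 was -0.10 in HP against Control, 0.18 in HF against Control and -0.18 in HP against HF. In Control 6 the log2 ratio was 1.87 for Tsc22d3, 0.965 for Dusp1, 0.654 for Fkbp5, 0.409 for Per1 and 0.14 for Pck1. Each was the highest of the Control livers. Tdo2 in Control 6 was the lowest of them (-0.508), and Sgk1 and Zbtb16 lay within the range of the others. These medians were not computed without Control 6. Of the HP against HF calls, Fahd1 and Got2 were each lost in 14 of 19 omissions of a liver, Sgk1 in 11, Dusp1 in 9 and Mif in 8.

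No called gene was found among the liver regulators (8 of 9 measured; limma, 0 at an unadjusted p under 0.05 in each comparison), which include Cebpb (-0.145 in HP against Control) and the glucocorticoid receptor Nr3c1 (-0.13). Nor was any found in the list of tetrahydrobiopterin synthesis and recycling (5 of 7 measured; 2, 1 and 1 at an unadjusted p under 0.05 in HP against Control, HF against Control and HP against HF). There Spr, sepiapterin reductase, was 0.27 above Control in HP (adjusted p = 0.134), and Gchfr, which regulates the first step of synthesis, 0.18 in HP (adjusted p = 0.142). With the Cy5 signal alone, the calls lost among these genes were also Fahd1 (adjusted p = 0.107) and Mif (0.087) in HF against Control. In HP against HF they were Kyat1 (adjusted p = 0.168), Acat1 (0.165), Mif (0.086), Got2 (0.79), Sgk1 (0.0764) and Fahd1 (0.0516; 0.0538 with scaled ratios). With slide as a fixed block, the calls that held among these genes were Slc43a1 and Slc16a10 in HF against Control and Got1 and Kyat1 in HP against HF.

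**Figure D4:**
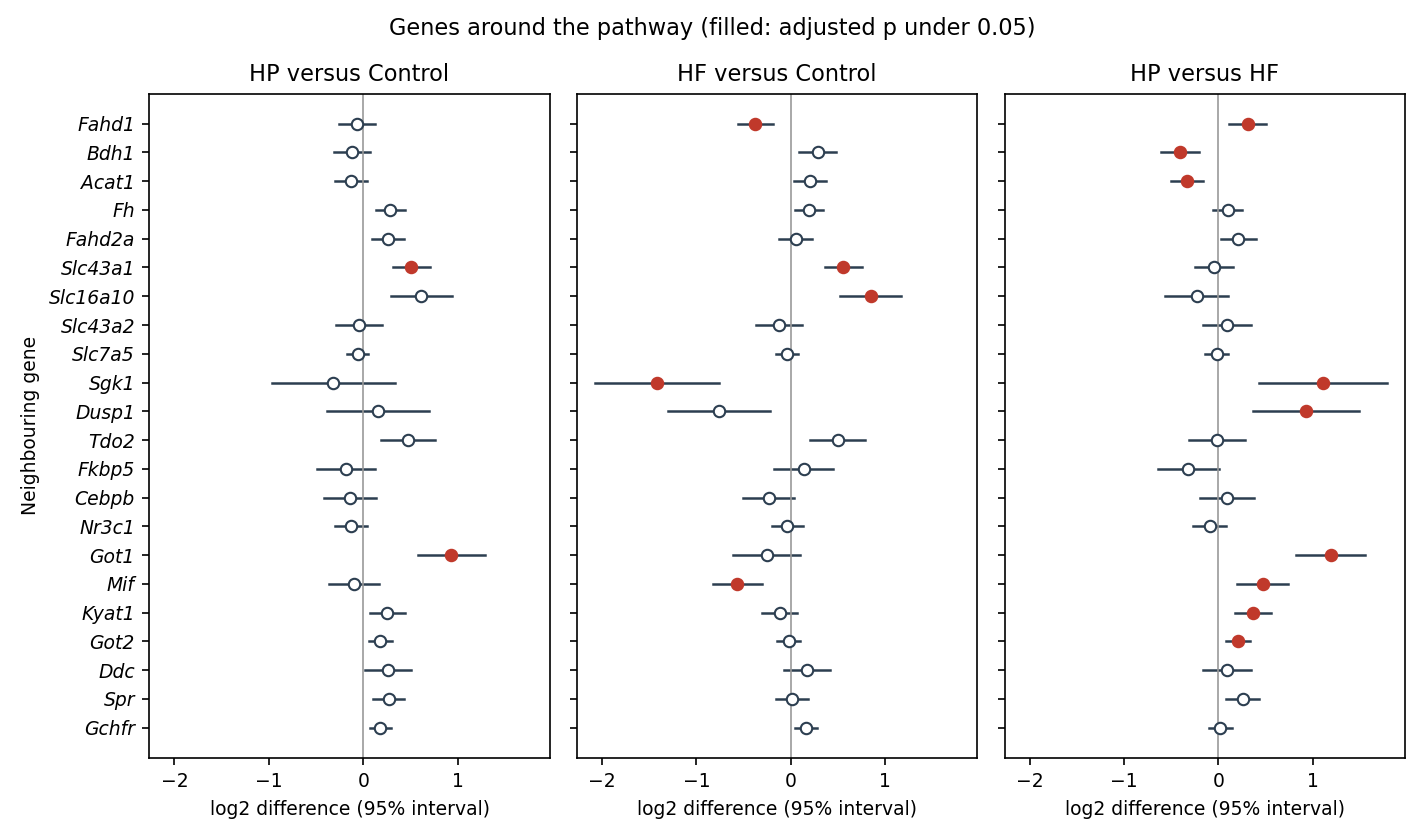
Log2 difference between diets, with 95% intervals, for 22 named genes around the chain; filled points have an adjusted p under 0.05. Got1 is the gene with the largest HP minus HF difference (1.19), and Slc43a1 and Slc16a10 are filled in HF versus Control (0.555 and 0.845).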

How the data were processed

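The genes and lists were chosen with earlier results of these data known. Per the labels, total liver RNA (1000 ng) of each of 19 rats was hybridised in Cy5 against a Cy3 pool with no dye swap, and the labels name separate animals. Per the file headers, the authors' scanner files hold the intensity of each of 45018 spots and of its surroundings, from the software Agilent Feature Extraction 10.5.1.1. A matrix of log2 values was deposited too, with a median of 8.2 in every column. Its values tracked Cy5 within an array and, between arrays, the centred log ratio (r from 0.918 to 0.976 across features), so they run in the same direction; the steps behind its scale and centring are not given in the sources used here. It served as an alternative.

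Background medians were subtracted by normexp (offset 50). Spots whose local background exceeded the spot by over 50 were dropped, a step adopted after earlier results were known. Loess within each array normalised the log ratios (rat over pool), without control spots, and scanner outliers were dropped. The 25292 probes that the scanner marked as above background in Cy5 on 6 or more arrays were kept, and a gene took its brightest. Probes were named by accession (10963), symbol (5160), synonym (3544) or file name (144), and 21201 had no name. Cy5 was well above background on 54.2% to 67.5% of the 43379 non-control spots per array. The number of arrays limits the precision. limma 3.58.1 in R 4.3.3 fitted the 3 diets together (16 residual degrees of freedom), with Benjamini-Hochberg adjustment over 22228 features and a threshold of 0.05. For 228 features some log ratio was missing, 232 values in all, and the fit used the rest. The code was tested on simulated data. Named related genes were those called in any comparison plus up to 2 others of smallest p in each list. Alternatives changed the background, normalisation, filter, probe rule, slide, replicate number and livers included. Like-numbered rats of different diets had a mean correlation of -0.0102, against 0.00123 for unlike numbers, so no pairing was used.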

Additional observations from a re-analysis of the deposited data

How the results depend on the processing

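The count of genes called in HP against Control was 1, and became 0 with log ratios scaled between arrays (Hpd 0.652, adjusted p = 0.135) and 0 with slide as a fixed block (Hpd 0.731, adjusted p = 0.0736). Leaving out 1 liver gave 1 to 2, since Hgd was also called without HF 4 (adjusted p = 0.0446). Hpd stayed called in 19 of 19 omissions (0.691 to 0.826, adjusted p up to 0.0476). In HF against Control the count was 0, and 1 (Hpd) with normexp on every spot (0.479, adjusted p = 0.0299), with probes above background on all arrays (0.447, adjusted p = 0.045) and with slide as a random block (0.454, adjusted p = 0.0495). Leaving out 1 liver gave 0 to 1, with Hpd called without Control 4, Control 7, HP 4, HP 6 or HF 6 (adjusted p from 0.0176 to 0.0469). In HP against HF the count was 2 under all 13 alternatives and 19 omissions, with Tat at 1.01 to 1.26 and Hgd at 0.45 to 0.637 over the 13. The largest adjusted p over the 13 was 0.0473 for Tat and 0.041 for Hgd, both with slide as a fixed block. The HP minus HF difference of Qdpr turned to -0.008 with scaled ratios, -0.286 with slide as a fixed block, -0.506 within slide 1, and -0.088, -0.004 and -0.016 without HP 6, HF 5 and HF 6; over all omissions it ran from -0.088 to 0.106. The HF minus Control difference turned to 0.087 for Tat within slide 1 and to 0.024 and 0.02 for Hgd within slides 1 and 2. The causes were not tested. With the replicate number as a block Hpd was 0.826 (adjusted p = 0.0273) in HP against Control, and Tat 1.02 (adjusted p = 0.00389) and Hgd 0.485 (adjusted p = 0.0129) in HP against HF, and it changed no call of the 5 genes. Of 19 rats 5 correlated best with their own number. Over all features, the 92 calls of HP against Control became 55 (47.3% higher, against 66.3%) with normexp on every spot, 52 (76.9%) with processed signals, 56 (80.4%) with Cy5 alone, 3 (100% higher) with scaled ratios, 78 (89.7%) in the authors' matrix, 20 with slide as a fixed block, 162 with the replicate block, 32 with only the 2 diets and 17 to 374 with a liver left out. The 807 of HF against Control became 443, and the 1561 of HP against HF 343, with slide as a fixed block. Within-array precision is limited by signal over background, and all 5 probes were above background on every array.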
